A study of Mus musculus with 4 samples.

Results

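The Sprouty and Spred genes Spry1, Spry2, Spry4, Spred1 and Spred2 encode feedback inhibitors of growth factor signalling. They were taken as the rows of the count table whose Ensembl IDs map to these 5 symbols, out of 23390 gene models, and all 5 passed the filter on low counts. Of the other genes of both families, Spred3 has a row and Spry3 was not analysed here. The 2 groups were BMS-582949 (2 libraries), mouse osteoclast cultures given 10 µM of a compound that inhibits the kinase p38α, and DMSO (2 libraries), the same cultures given the solvent. Both groups came from wild-type C57BL/6J bone marrow that had been grown for 3 days with L929 cell supernatant as the source of M-CSF (equivalent to 20 ng/ml of the recombinant factor). The attached macrophages were then given 40 ng/ml RANKL with the supernatant, and RNA was taken at day 4. The compound was present for 3 days by the design text and for 4 days by the treatment protocol, which mentions it for every sample, so the groups follow the treatment label. The study asked what the compound does while osteoclasts form. No label tells whether libraries within a group stem from separate mice or cultures. The p-values therefore cover only the spread among these samples, and that spread may be technical.

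When a receptor tyrosine kinase such as the M-CSF receptor is activated, it turns on the small GTPase Ras, which passes the signal through the RAF and MEK kinases to ERK. Sprouty and Spred proteins are made or activated in response to such signals and damp the same route, which makes them a negative feedback. Both kinds share a cysteine-rich C-terminal domain, while Spred proteins also carry an N-terminal EVH1 domain, through which they bring the Ras inactivator neurofibromin to the membrane. In cells of the osteoclast lineage this route carries signals of M-CSF, the factor on which precursors depend for growth and survival.

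Spry1 was strongly lower with BMS-582949, and no other member changed by a comparable amount. With TMM scaling Spry1, Spry2 and Spred1 were called lower (3 of 5), and Spry4 and Spred2 were not called. Calls rest on edgeR's quasi-likelihood test, at a p under 0.05 after Benjamini-Hochberg adjustment over all genes. Of 13214 genes tested, 60.2% were called, 29.7% lower and 30.5% higher, so calls were common among all genes. The count of members called in either direction is near that background, though all 3 were called lower. The 95% interval of the Spry1 change lay wholly below those of the other members. The falls of Spry2 and Spred1 were small and depended on how libraries were scaled.

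The regions upstream of Spry1 and Spry2 are shown because these are the Sprouty members called lower, with falls of very different size. Each runs from 250 bases before to 50 bases after the start of the gene on GRCm38.p6, from RefSeq, and capitals mark matches to the motifs named below.
Spry1, chr3:37639697-37639996, plus strand: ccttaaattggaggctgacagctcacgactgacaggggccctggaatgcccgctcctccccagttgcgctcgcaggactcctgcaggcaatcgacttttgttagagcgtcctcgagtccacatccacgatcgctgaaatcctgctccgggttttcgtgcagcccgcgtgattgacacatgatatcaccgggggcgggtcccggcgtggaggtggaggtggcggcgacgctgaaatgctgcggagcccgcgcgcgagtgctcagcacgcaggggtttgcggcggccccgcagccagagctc
Spry2, chr14:105896770-105897069, minus strand: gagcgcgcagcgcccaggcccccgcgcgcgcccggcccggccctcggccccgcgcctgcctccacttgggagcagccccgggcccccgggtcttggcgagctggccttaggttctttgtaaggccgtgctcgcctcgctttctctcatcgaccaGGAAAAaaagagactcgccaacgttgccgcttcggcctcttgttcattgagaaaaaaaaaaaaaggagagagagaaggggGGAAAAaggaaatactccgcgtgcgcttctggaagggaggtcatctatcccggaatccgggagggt
Both windows are rich in G and C, at 64.3% for Spry1 and 62.7% for Spry2, with 29 and 28 CG dinucleotides. The letters searched on both strands were AP-1 (TGANTCA), CRE (TGACGTCA), its half-site (TGACG, which every CRE match also contains), ETS (GGAAGT), NFAT (GGAAAA), the E-box CACGTG and the CArG box. The Spry1 window held none of these letters, and the Spry2 window held GGAAAA at -96 to -91 and at -16 to -11 from the start. Among all 32851 promoter windows of the same length, 7.81% held AP-1, 1.79% CRE, 20.8% the half-site, 23.8% ETS, 23.4% NFAT, 7.15% the E-box and 1.63% the CArG box. The Spred2 window held ETS and NFAT letters once each and 1 CRE half-site, and that of Spred1 held none. RefSeq and GENCODE M21 give the same start for Spry1 and Spry2, but starts 303 bases apart for Spred1 and 67 for Spred2. The Spred1 window therefore ends before the GENCODE start. A match is a description of the letters, not a binding site.

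Libraries held 39255925 and 37455168 counts with BMS-582949, against 35331889 and 36178333 with DMSO. The TMM factors were 1.15 and 1.13 with BMS-582949 and 0.88 and 0.87 with DMSO, so scaling matters for small changes here. The median over all genes tested was a log2 fold change of 0.03 with TMM and 0.41 under library size alone. The 11 osteoclast markers fixed for the check of the label were detected in every library. Their summed level was 13496 and 13752 CPM with BMS-582949 and 112100 and 116540 CPM with DMSO, and all 11 were called lower, with and without TMM. Acp5, which encodes tartrate-resistant acid phosphatase, was 9.23-fold lower with BMS-582949.

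Spry1, whose product restrains signalling from receptor tyrosine kinases to ERK, was counted 257 and 224 times in the BMS-582949 libraries and 1339 and 1479 times in the DMSO libraries. As CPM (TMM-scaled counts divided by library size) these were 5.68 and 5.29 with BMS-582949, against 43.1 and 46.9 with DMSO. Both BMS-582949 libraries lay far below both DMSO libraries, and libraries within a group lay close together. The mean was 5.49 ± 0.274 CPM with BMS-582949 and 45.0 ± 2.68 CPM with DMSO (SD, n = 2 each), 8.20-fold lower. The log2 fold change was -3.03 ± 0.12 (SE; edgeR adjusted p = 8.4e-10), with a 95% interval of -3.30 to -2.77. It was the 184th lowest log2 fold change of 13214, close to that of Acp5 (-3.21 ± 0.10). The call held under all 14 alternative settings, with values from -3.09 to -2.65. Since these are whole cultures, fewer cells of a type and less RNA per cell cannot be told apart, and the fall of the osteoclast markers stands beside that of Spry1; its part in it was not tested.

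Spry1 (ENSMUSG00000037211) lies on chromosome 3 at 37639947 to 37644598 on the plus strand of GRCm38 (GENCODE M21), with 2906 bases of exon. A model on the opposite strand, Gm42922, which has no row in the table, overlaps 24.4% of these exon bases. Whether counting used strand is not given in the sources used here, so reads from that model could not be separated from those of Spry1.

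Spry2 encodes the Sprouty protein best known for binding the ubiquitin ligase Cbl. Its counts were 483 and 563 in the BMS-582949 libraries and 467 and 524 in the DMSO libraries, nearly the same before scaling. As CPM they were 10.7 and 13.3 with BMS-582949, against 15.0 and 16.6 with DMSO. The groups did not overlap in CPM, yet the gap between them was smaller than that between the BMS-582949 libraries. The log2 fold change was -0.40 ± 0.14 (SE; edgeR adjusted p = 0.023), with a 95% interval of -0.70 to -0.10. It was -0.02 with library size only (adjusted p = 0.91). Without BMS-582949 replicate 1 it was -0.25 (adjusted p = 0.23) and without DMSO replicate 2 it was -0.32 (adjusted p = 0.078), so the call also rests on single libraries. Spry2 (ENSMUSG00000022114) lies on chromosome 14 at 105891947 to 105896819, minus strand.

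Spry4, another inhibitor of the Ras to ERK route, had few counts, 82 and 80 with BMS-582949 and 46 and 57 with DMSO. Its level was 1.81 and 1.89 CPM with BMS-582949, against 1.48 and 1.81 CPM with DMSO. The BMS-582949 libraries were the higher ones, but the lower of them and the higher of the DMSO libraries were both at 1.81 CPM. It was not called, at a log2 fold change of 0.17 ± 0.33 (SE; edgeR adjusted p = 0.67). The 95% interval of -0.54 to 0.88 leaves room for a change in either direction at this depth, but not for a fall of the size seen for Spry1. Spry4 (ENSMUSG00000024427) is on chromosome 18.

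**Figure D1:**
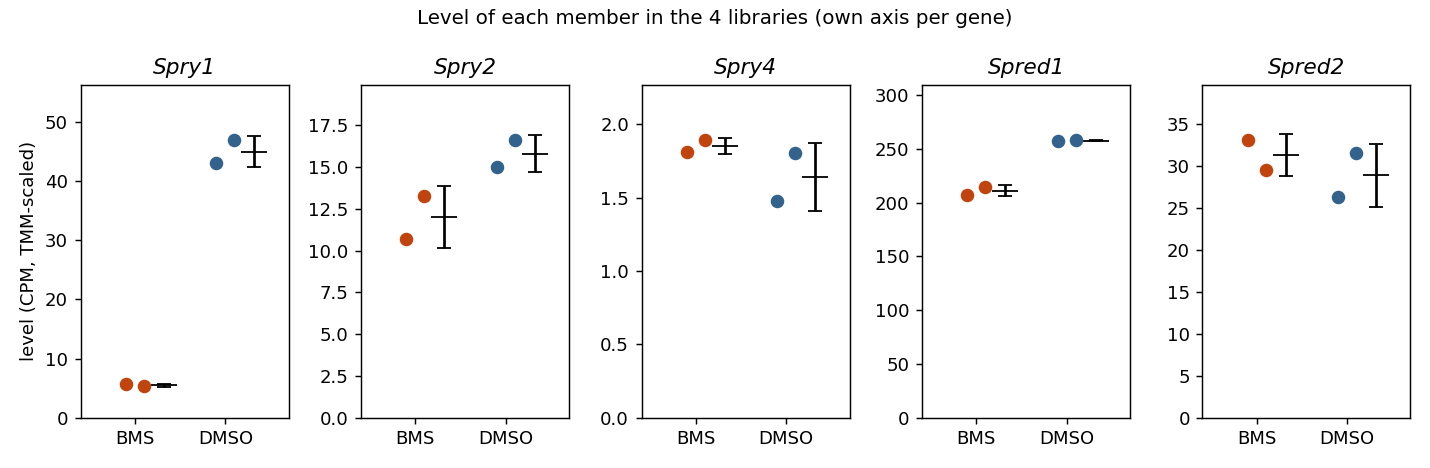
Level of each member in CPM (TMM-scaled, linear axis from 0, a separate axis for each gene); points are libraries, BMS-582949 (BMS) left of DMSO, and the black mark with its bar is the mean ± SD of the 2 libraries. Spry1 is at 5.29 to 5.68 CPM with BMS-582949 and 43.1 to 46.9 CPM with DMSO, while the other genes differ by less than 1.5 times between group means; under library size only, Spred1 is slightly higher with BMS-582949.

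Among the Spred genes, Spred1 was the most abundant member. Its product binds neurofibromin and so helps to switch Ras off. It was counted 9378 and 9086 times with BMS-582949 and 7997 and 8138 times with DMSO. As CPM this was 207 and 215 with BMS-582949, against 257 and 258 with DMSO, with libraries of a group close together and the groups apart. The log2 fold change was -0.29 ± 0.06 (SE; edgeR adjusted p = 0.0011), or 1.22-fold lower, with a 95% interval of -0.42 to -0.16. With library size only it turned to 0.09 (adjusted p = 0.16), about the same shift as that of the median of all genes. The direction therefore holds only relative to the bulk of genes. With GC and length trends removed the fall was larger, at -0.48 (edgeR adjusted p = 1.5e-05). Spred1 (ENSMUSG00000027351) lies on chromosome 2 at 117121374 to 117182279, plus strand.

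Spred2, which acts like Spred1, was counted 1496 and 1249 times with BMS-582949 and 817 and 997 times with DMSO. Its CPM were 33.1 and 29.5 with BMS-582949 and 26.3 and 31.6 with DMSO, and the groups overlapped. The log2 fold change was 0.11 ± 0.12 (SE; edgeR adjusted p = 0.44), with a 95% interval of -0.15 to 0.38. With library size only it was called higher, at 0.50 (adjusted p = 0.0040), and without DMSO replicate 1 it was -0.01. Spred2 (ENSMUSG00000045671) lies on chromosome 11 at 19924375 to 20024026, plus strand. No other model overlaps exons of Spry2, Spry4, Spred1 or Spred2.

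In CPM, 4 of the 5 members had groups that did not overlap, where 80.2% of all genes tested did not. Both BMS-582949 libraries were below both DMSO libraries for Spry1, Spry2 and Spred1 (38.7% of all genes) and above them for Spry4 (41.4% of all genes). Spred3, of the same family and not among the 5 members, was near the limit of detection, with 49 and 26 counts with BMS-582949 and 2 and 32 with DMSO. It was not called (edgeR adjusted p = 0.50).

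**Figure D2:**
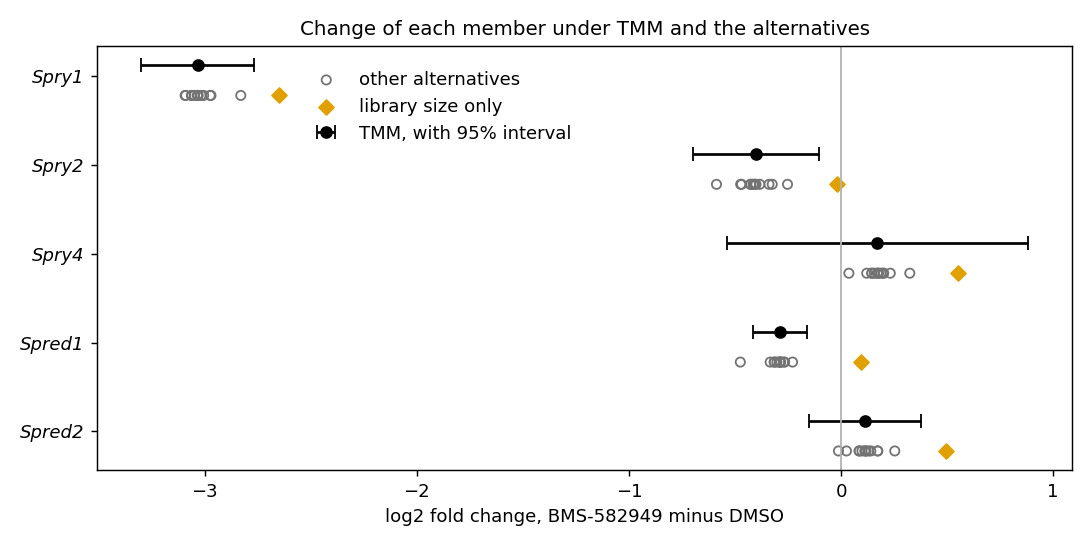
Log2 fold change (BMS-582949 minus DMSO) of each member: black points with 95% intervals are the TMM fit, yellow diamonds library size only, and open circles the other alternatives. Spry1 stays between -3.09 and -2.65, and for every gene the diamond sits to the right of the TMM value; for Spred1 it crosses 0 to 0.09.

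Levels can be compared between genes only per length, here as RPKM (TMM-scaled CPM per kilobase of annotated exon). With BMS-582949 the order was Spred1 (31.1 ± 0.771), Spred2 (6.78 ± 0.544), Spry2 (5.75 ± 0.890), Spry1 (1.89 ± 0.0944) and Spry4 (0.389 ± 0.0116 RPKM). With DMSO it was Spred1 (38.0 ± 0.0671), Spry1 (15.5 ± 0.924), Spry2 (7.58 ± 0.536), Spred2 (6.27 ± 0.813) and Spry4 (0.346 ± 0.0486 RPKM; SD, n = 2 each). Spry1 was thus the second most abundant member per length with DMSO and the fourth with BMS-582949. Spred2 and Spry2 were neighbours in both groups, with Spred2 the higher with BMS-582949 and Spry2 the higher with DMSO. Their libraries did not overlap, but their means differed by less than the sum of their SDs. The other neighbours differed by more than that.

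As a share of the summed RPKM of the 5 members, a measure that scaling cannot change, Spry1 held 4.33% and 3.91% with BMS-582949, against 22.5% and 23.3% with DMSO. The share of Spred1 was 67.7% and 67.9% with BMS-582949, against 57.5% and 54.8% with DMSO. The difference for Spry1 was -18.8 percentage points, with each BMS-582949 library below each DMSO library. The exact permutation test over samples (two-sided) gave p = 0.33, the smallest that 2 libraries against 2 allow. On raw counts without length the share of Spry1 was 2.10% ± 0.140 with BMS-582949 and 12.9% ± 0.465 with DMSO (SD, n = 2 each). The summed count of the 5 genes was 11696 and 11202 with BMS-582949, against 10666 and 11195 with DMSO.

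**Figure D3:**
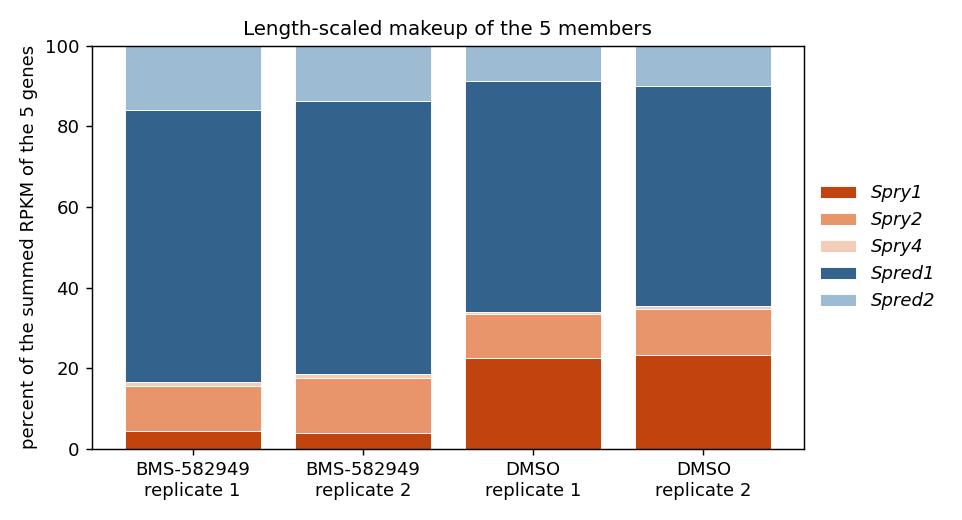
Makeup of the 5 members in each library, as percent of their summed RPKM (linear axis, 0 to 100); BMS-582949 libraries left, DMSO libraries right, 1 bar per library. The Spry1 segment is 3.91% to 4.33% of the bar with BMS-582949 and 22.5% to 23.3% with DMSO, and Spred1 is the widest segment in all 4 libraries.

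The genes with profiles most like those of the called members were sought by Euclidean distance between log2 CPM, each centred on its own mean, over the 4 libraries and 8411 candidate genes. For Spry1 these were Bdh1 (distance 0.022, log2 fold change -3.05), Fam57b (0.039, -3.01) and Dcstamp (0.081, -2.98). Bdh1 encodes a ketone body dehydrogenase, and Dcstamp a membrane protein needed for the fusion of osteoclast precursors. Bdh1 had 36.8 and 34.9 CPM with BMS-582949 and 283 and 310 CPM with DMSO. For Spry2 the nearest were Abca1, a cholesterol exporter gene (0.033), Haghl (0.047) and Fbxl17 (0.050). For Spred1 they were Lactb (0.0085), Xbp1, a transcription factor gene of the unfolded protein response (0.015), and Ppp2ca (0.015). With 4 libraries in 2 groups, such likeness mostly reflects a similar fold change.

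Genes of proteins that bind or modify Sprouty and Spred proteins were called in both directions, at about the shares of all genes tested. Of 10 listed, 3 were called higher and 3 lower, where 30.5% of all genes were higher and 29.7% lower. Their median log2 fold change was -0.05, beside 0.03 for all genes tested. With library size only, 6 were higher and 1 lower. Nf1, which encodes neurofibromin, had 13.4 and 15.6 CPM with BMS-582949 and 14.5 and 12.1 CPM with DMSO, overlapped and was not called (0.12 ± 0.13 SE, edgeR adjusted p = 0.46). It was called higher with library size only (0.50, adjusted p = 0.0064). Cbl rose to 63.6 and 61.1 CPM with BMS-582949, against 31.9 and 43.2 CPM with DMSO (0.73 ± 0.12 SE, edgeR adjusted p = 1.5e-04). The scaffold gene Cav1, for caveolin-1, rose by 0.61. Tesk1, a kinase that Sprouty proteins bind, changed by -0.55, and Ppp2ca, a catalytic subunit of the phosphatase PP2A, by -0.30. Under library size only Ppp2ca was at 0.08, Tesk1 at -0.17, Cbl at 1.11 and Cav1 at 0.99, and without GC and length trends Tesk1 was at -0.28. Exons of Tesk1 overlap Cd72, on the other strand, over 32.1% of their length, and those of Ppp2ca other models over 41.3%.

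Upstream, receptor tyrosine kinases were more often lower than higher with TMM. Of 20 tested, 8 were called lower and 3 higher (median -0.25), where 29.7% of all genes were lower and 30.5% higher (median 0.03). Under library size only 5 were higher and 6 lower (median 0.13). Mst1r, the receptor for macrophage-stimulating protein, had 27.5 and 25.2 CPM with BMS-582949, against 275 and 291 CPM with DMSO, a log2 fold change of -3.43 ± 0.07 (SE; edgeR adjusted p = 1.9e-11). Met, the receptor for hepatocyte growth factor, was 2.86-fold lower. Csf1r, the M-CSF receptor, had 875 and 891 CPM with BMS-582949, against 1886 and 2069 CPM with DMSO, and was 2.24-fold lower. The receptors Mertk and Axl, which bind Gas6 and serve in the uptake of dead cells, rose by 1.35 and 0.56 (Axl by 0.95 under library size only). Of the ligands, 5 of 16 were called higher and 6 lower (median -0.07), while under library size only 7 were higher and 5 lower (median 0.31). They included Igf1, an insulin-like growth factor (1.29), and Il34, the other ligand of the M-CSF receptor (1.35), among those that rose, and Vegfb, a vascular growth factor (-1.73), among those that fell. Hgf, the ligand of Met, changed by -1.46 from 0.647 CPM with BMS-582949 and 1.79 CPM with DMSO, and its call ended without DMSO replicate 1 (-0.96, adjusted p = 0.22) and with library size only (-1.08, adjusted p = 0.055).

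The cascade between receptor and ERK moved both ways. Of 19 adaptors, Ras genes and kinases, 7 were called higher and 3 lower (median 0.17), beside 30.5% and 29.7% of all genes. With library size only 16 were higher and 2 lower (median 0.55). The scaffold gene Ksr1 rose by 1.32 from low levels, 2.85 and 2.20 CPM with BMS-582949 against 1.25 and 0.761 CPM with DMSO. The adaptor genes moved apart, with Gab1 at 0.96 and Gab2 at -0.85. Map2k2, for MEK2, changed by -0.61. This was -0.23 under library size only and -0.39 after removal of GC and length trends. Gab2 was at -0.47 under library size only. The gene of the compound's target p38α, Mapk14, had 160 and 156 CPM with BMS-582949, against 100 and 111 CPM with DMSO (0.58 ± 0.07 SE, edgeR adjusted p = 1.0e-05), and its change was 0.96 under library size only.

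Downstream, genes known to be induced by ERK moved both ways, with more of them higher. Of 21 tested, 11 were called higher and 7 lower (median 0.45), beside 30.5% and 29.7% of all genes. With library size only 13 were higher and 3 lower (median 0.83). Dusp6, a phosphatase that acts on ERK and is, like the Sproutys, a feedback inhibitor, had 68.4 and 67.3 CPM with BMS-582949, against 41.1 and 41.0 CPM with DMSO (0.72 ± 0.07 SE, edgeR adjusted p = 2.6e-06). Etv5, an ETS transcription factor gene, had 34.8 and 35.9 CPM with BMS-582949, against 14.2 and 13.3 CPM with DMSO (1.36 ± 0.11 SE). Both lay higher with BMS-582949 in each library, opposite to Spry1. Ccnd1, for cyclin D1, rose by 2.50 and Myc by 1.55. The members that fell included Dusp4, another MAP kinase phosphatase gene (-0.94), and Egr3, a zinc finger factor gene at 0.894 ± 0.139 CPM with BMS-582949 and 2.52 ± 0.0636 CPM with DMSO (-1.49). Under library size only Dusp6 was at 1.11 and Dusp4 at -0.56. Of the exon bases of Ccnd1, 23.4% are shared with another model.

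**Figure D4:**
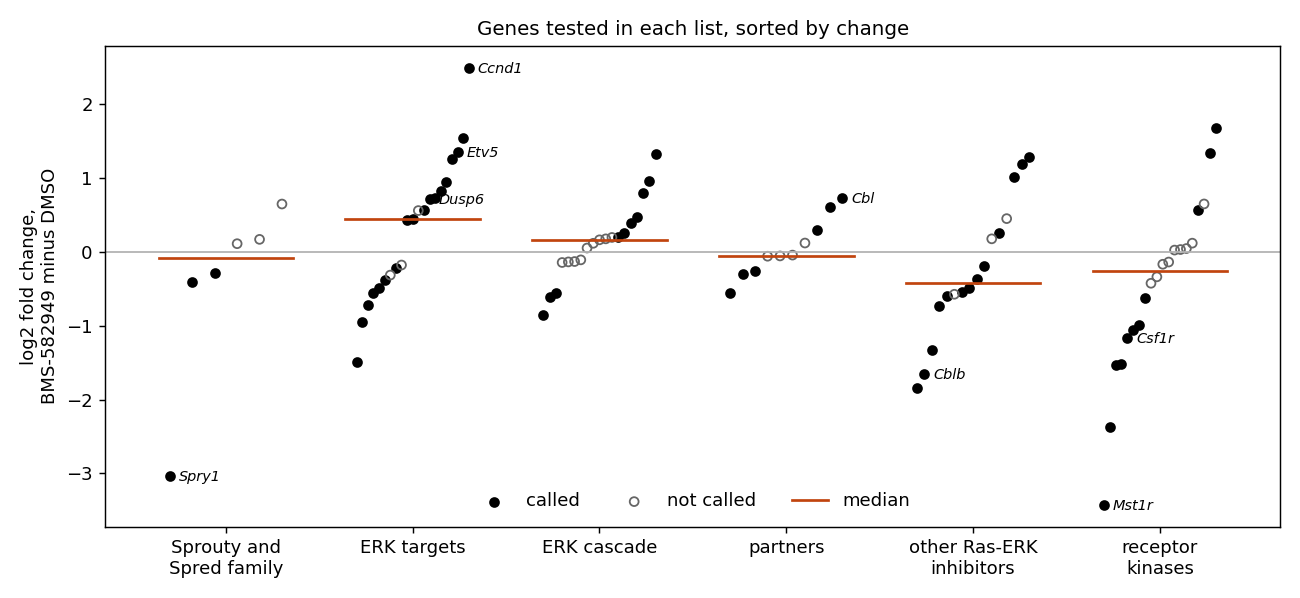
Log2 fold change (BMS-582949 minus DMSO, TMM) of every tested gene in 6 lists, sorted within each list; filled points were called, open points were not, and red bars are medians. Spry1 at -3.03 stands apart from the other genes of its family, which lie between -0.40 and 0.65. Of 21 ERK targets, 11 were called higher, Dusp6, Etv5 and Ccnd1 among them. Another 7 were called lower, Dusp4 and Egr3 among them. With library size only, the medians of all lists shown move up.

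Other inhibitors of the Ras to ERK route were more often lower with TMM. Of 16 tested, 9 were called lower and 4 higher (median -0.42), where 29.7% of all genes were lower and 30.5% higher. At an absolute log2 fold change of at least 1, 3 were lower and 3 higher. Under library size only, where 6738 of all genes were higher and 2240 lower, 7 were higher and 5 lower (median -0.04). Rasal2, a Ras GTPase activating protein gene, had 7.18 and 5.88 CPM with BMS-582949, against 22.4 and 24.6 CPM with DMSO. Cblb, a ubiquitin ligase gene related to Cbl, had 20.3 and 22.6 CPM with BMS-582949 against 62.2 and 72.6 CPM with DMSO, a log2 fold change of -1.65. Rasal3, of the same kind as Rasal2, rose by 1.29 and the adaptor gene Dok2 by 1.19. Cbl and Cblb thus moved in opposite directions, and so did Rasal2 and Rasal3, also with library size only.

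Markers of other cells that the cultures could hold were measured beside the members. Among 10 macrophage markers, 5 were called higher and 2 lower (median 0.51), where 30.5% of all genes were higher and 29.7% lower. Under library size only, 7 of these markers were higher and 2 lower (median 0.89). Their summed level was 3073 and 3272 CPM with BMS-582949 and 5787 and 6043 CPM with DMSO. Cx3cr1, a chemokine receptor gene, was at 33.5 and 31.3 CPM with BMS-582949 and 1.16 and 1.52 CPM with DMSO. The markers that fell were Cd68, for a lysosomal glycoprotein, 2.55-fold lower, and Csf1r, described above. Stromal markers, of cells in which Sprouty genes are also expressed, had 8 of 14 tested called lower and 2 higher (median -0.47). Scaled by library size only, 3 were higher and 2 lower (median -0.09). Their summed level was 1240 and 1203 CPM with BMS-582949 and 1526 and 1397 CPM with DMSO. Among them Col3a1, a fibrillar collagen gene, was 1.97-fold lower (log2 fold change -0.98, and -0.60 under library size only). Lum was at 0 in both BMS-582949 libraries, but its level with DMSO is not given here, so no change is read from it. The markers called higher were Thy1, a surface glycoprotein gene (0.96), and Acta2, for smooth muscle actin (0.22, and 0.61 under library size only). Both calls ended without BMS-582949 replicate 1 (0.63 and 0.18; adjusted p = 0.25 and 0.057) and without DMSO replicate 2 (0.85 and 0.15; adjusted p = 0.080 and 0.14). Endothelial markers summed to 11.7 and 10.8 CPM with BMS-582949 and 6.85 and 9.67 CPM with DMSO. Of 6 tested, 2 were called higher and 1 lower, or 2 and 0 under library size only. Neutrophil markers summed to 17.6 and 20.9 CPM with BMS-582949 and 28.0 and 27.7 CPM with DMSO, with Ly6g at 0. Of 7 tested, 3 were called lower, or 2 under library size only. Lymphoid and mast cell markers summed to at most 1.80 and 0.307 CPM in any library, and Cd3e, Tpsb2 and Cma1 were at 0. The part of the macrophage and stromal markers in the change of Spry1 was not tested.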

How the data were processed

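The authors deposited raw counts for each gene model, 1 column per library. The control columns were assigned to the DMSO samples by title. Those of BMS-582949 were assigned by treatment label and replicate number, because the sample titles spell the compound's number differently. Per the submitters' processing notes, Trimmomatic 0.36, HISAT2 2.0.4 and DESeq2 1.30.1 were used with GRCm38, without roles. Which tool counted the reads, and whether by strand, is not given in the sources used here. Symbols, positions and exon lengths came from GENCODE M21.

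Genes were filtered with filterByExpr (minimum count 10), scaled with TMM and tested with edgeR 4.0.16 (glmQLFit, glmQLFTest; 2 residual degrees of freedom) in R 4.3.3, BMS-582949 minus DMSO, with adjustment over all 13214 genes. The tests were tried on simulated data. A chi-square of the 2 libraries of a group, divided by its degrees of freedom, was 14.3 for BMS-582949 and 10.0 for DMSO, above sampling noise. CPM are TMM-scaled. Interval and SE come from the fit. For profiles, 0.01 CPM was added before log2.

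The members, lists and tests were chosen with earlier results of these data known. Named are the family, per list up to 2 called genes in each direction that average at least 1 CPM, 7 fixed genes, and the 3 nearest profiles of each called member with a mean of at least 10 CPM. Some genes that the rule takes are not described. Alternatives were other scalings, filters and tools (DESeq2 1.42.0, limma-voom 3.58.1), removal of GC and length trends (loess, span 0.3, values for 95.5% of tested genes), removal of osteoclast and mitochondrial genes, the replicate number as a block, and omission of each library in turn.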

Additional observations from a re-analysis of the deposited data

How the results depend on the processing

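The fall of Spry1 kept its direction and its call under all 14 alternatives (-3.09 to -2.65), and its share of the members was lower with BMS-582949 under each of its 5 alternatives. With library size only, Spry2 was -0.020, Spred1 0.094 and Spred2 0.50, the last called. The median over all genes tested was 0.41 under that scaling and 0.03 with TMM. Leaving out 1 library gave -0.59 to -0.25 for Spry2, with the call lost without DMSO replicate 2 or BMS-582949 replicate 1. For Spred2 it gave -0.012 (DMSO replicate 1 left out) to 0.25. With replicate number as a replicate block the values were -3.03, -0.41, 0.18, -0.29 and 0.12 for Spry1, Spry2, Spry4, Spred1 and Spred2. The calls were the same. Deviations of same-numbered libraries correlated at -0.08. With 2 libraries a group this is a single independent value, so whether the numbers pair the libraries cannot be told from it. Library size only gave 6738 genes higher and 2240 lower; the counts higher were 16 (ERK cascade), 6 (partners), 7 (other inhibitors) and 5 (receptor kinases), and the counts lower 1 (partners), 5 (other inhibitors) and 3 (ERK targets). At an absolute log2 fold change of at least 1 the counts were 1314 higher and 1499 lower of all genes. In the same order they were 1 and 0 for the cascade, 0 and 0 for partners and 3 and 3 for other inhibitors. For ERK targets they were 4 and 1, and for receptor kinases 2 and 6. ERK targets had 4 lower with the GC and length trend removed and 4 lower at an adjusted p under 0.01, and 5 receptor kinases were higher without a low-count filter, where 25 were tested. The causes of these shifts were not tested. Depth limits Spry4, whose interval spans a change in either direction.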
